A study of Homo sapiens with 12 samples.

Results

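The cytosolic heat shock chaperones were followed here through 10 genes: the transcription factor HSF1 and the chaperone genes HSPA1A, HSPA1B, HSPA8, HSPH1, HSP90AA1, HSP90AB1, DNAJB1, HSPB1 and BAG3. They were taken by name, as the rows of the deposited count table whose Ensembl identifiers carry those symbols, and all 10 were found among the 61541 genes of the table. All 10 also passed the filter on low counts that left 16768 genes for testing. The series measured RNA by sequencing in 12 libraries, all labelled as A549, a human lung adenocarcinoma cell line, and each of its 4 groups held 3 libraries taken on day 14 after transduction. The control groups carried a non-targeting guide, gNTC1, and the knockout groups carried a Cas9 knockout of TYMS, whose product, thymidylate synthase, supplies DNA synthesis with its thymidine nucleotide. Cells of each genotype were grown alone or in co-culture. The series text names parental A549 cells as the partner of the knockout cells and describes restored proliferation in their presence. The labels do not name the partner of the control cells or say whether partner cells were removed before RNA was taken. Every group was grown in DMEM with fetal bovine serum and is labelled as receiving no treatment, so no heat or drug was given to any of them. Nothing in the labels says that replicates came from separate cultures, so the p-values below measure only the spread between these samples, which may be technical.

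In the heat shock response, HSF1 is held inactive by chaperones in unstressed cells. When unfolded proteins occupy those chaperones, HSF1 forms trimers, enters the nucleus and binds heat shock elements, which are repeats of a short GAA unit in alternating orientation. Its targets refold or dispose of damaged proteins. HSP70 proteins bind exposed hydrophobic stretches in cycles of ATP hydrolysis, which HSP40 proteins such as DNAJB1 start and exchange factors such as HSPH1 and BAG3 end. HSP90 proteins act later on, on kinases, steroid receptors and other near-native clients, and HSPB1 holds unfolded proteins without using ATP. Many tumour lines express these genes at high levels without heat.

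The targeted gene and markers of the cells were checked first. TYMS stood at 90.3 to 100.8 CPM (counts scaled to library size, with TMM factors) in the 6 control libraries, at 20.3, 21.0 and 21.4 CPM in knockout cells alone, and at 11.4, 11.0 and 10.7 CPM in co-cultured knockout cells. All 10 genes listed as high in A549 were expressed, with summed levels of 6864 to 8608 CPM in control libraries and 16105 to 17333 CPM in knockout libraries. CDKN2A, CDKN2B and MTAP, which lie in a stretch known to be deleted in A549, summed to 0.302 to 0.746 CPM in the 6 knockout libraries but to 121.8 to 165.6 CPM in the 6 control libraries. EPCAM, an epithelial surface protein, ranged from 94.4 to 119.5 CPM in control libraries and from 0.149 to 0.913 CPM in knockout libraries. The other listed epithelial genes were lower too but remained expressed. In lone control cells KRT8, KRT18, KRT19 and CDH1 had means of 7168, 3056, 1740 and 55.8 CPM. In lone knockout cells the means were 3726, 2262, 255 and 17.5 CPM. The levels of CDKN2A, CDKN2B and MTAP go against the A549 label of the 6 control libraries. Control and knockout therefore name the labels throughout, and whether the control libraries come from A549 was not settled here. In comparisons of knockout with control, the guide and whatever else separates these cells therefore cannot be told apart. Lone and co-cultured knockout cells stand on the same side of that line. Leukocyte markers summed to 1.74 to 7.84 CPM over all 12 libraries with CD3E at 0, endothelial markers to at most 2.73 CPM, and fibroblast markers to 14.3 to 34.5 CPM, mostly COL1A1 and THY1. CD14 and CD68 were higher in co-cultured than in lone knockout cells, at 0.866 and 0.893 CPM alone and 3.25 and 2.99 CPM in co-culture, and the part of any other cell type in the results below was not tested. In bulk RNA, fewer cells that express a gene and less of its RNA per cell cannot be told apart.

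The stretches upstream of the chaperone genes are shown because they carry the letters that HSF1 is known to bind. RefSeq promoter windows (build GRCh38.p14, 250 bases before to 50 after each annotated start) were given for 9 of the 10 genes, with 14 windows in all. The search on both strands was for 3 alternating units, that is TTCNNGAA followed after 2 further bases by TTC, or GAANNTTC followed after 2 further bases by GAA. A search for 2 units, TTCNNGAA or GAANNTTC, which every match of the longer motif contains, was chosen after the sequences were seen. The 3-unit motif was found in the windows of HSPA8, HSP90AA1 and HSP90AB1. By gene that is 3 of 9 (33.3%), against 0.608% of the 27305 genes in the table. By window it is 3 of 14 (21.4%), against 0.49% of the 35116 windows. At least 1 match of the 2-unit motif was found in 7 of the 9 genes (77.8%), against 16.2% of all genes. By window it was found in 8 of 14 (57.1%), against 13.5% of all windows. None was found in the windows of HSPH1 and BAG3. Among 57 related chaperone genes with windows, 6 (10.5%) held the 3-unit and 20 (35.1%) the 2-unit motif. The sequences follow 5′ to 3′ on the strand of the gene, and capitals mark the 3-unit matches in HSPA8, HSP90AA1 and HSP90AB1 and the 2-unit matches in the others. They lie at chr6:31815293-31815542 (HSPA1A, plus strand), chr6:31827488-31827737 (HSPA1B, plus strand), chr11:123062144-123062386 (HSPA8, minus strand), chr14:102087085-102087167 (HSP90AA1, minus strand), chr6:44247743-44247878 (HSP90AB1, plus strand), chr19:14518402-14518509 (DNAJB1, minus strand) and chr7:76302456-76302533 (HSPB1, plus strand).
HSPA1A: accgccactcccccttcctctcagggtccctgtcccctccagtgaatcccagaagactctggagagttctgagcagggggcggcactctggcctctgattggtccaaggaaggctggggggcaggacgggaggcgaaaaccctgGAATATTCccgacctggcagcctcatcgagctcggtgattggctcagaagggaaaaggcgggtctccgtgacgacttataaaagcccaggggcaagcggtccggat
HSPA1B: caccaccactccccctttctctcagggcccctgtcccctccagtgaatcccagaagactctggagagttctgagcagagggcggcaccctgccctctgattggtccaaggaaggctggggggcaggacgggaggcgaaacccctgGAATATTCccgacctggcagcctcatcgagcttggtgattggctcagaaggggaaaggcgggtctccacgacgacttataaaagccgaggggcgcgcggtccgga
HSPA8: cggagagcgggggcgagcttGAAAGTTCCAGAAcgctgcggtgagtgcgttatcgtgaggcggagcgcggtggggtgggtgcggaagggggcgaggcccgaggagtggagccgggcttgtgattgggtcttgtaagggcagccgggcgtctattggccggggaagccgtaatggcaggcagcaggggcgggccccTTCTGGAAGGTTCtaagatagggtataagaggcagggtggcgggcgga
HSP90AA1: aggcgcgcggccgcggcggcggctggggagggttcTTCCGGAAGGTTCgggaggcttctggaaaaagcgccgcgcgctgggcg
HSP90AB1: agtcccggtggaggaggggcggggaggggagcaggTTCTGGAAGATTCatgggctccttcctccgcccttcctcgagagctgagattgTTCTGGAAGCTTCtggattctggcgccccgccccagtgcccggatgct
DNAJB1: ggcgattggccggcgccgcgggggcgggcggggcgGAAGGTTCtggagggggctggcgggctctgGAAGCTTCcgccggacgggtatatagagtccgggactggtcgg
HSPB1: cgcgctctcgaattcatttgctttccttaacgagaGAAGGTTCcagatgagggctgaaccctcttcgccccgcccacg
The whole windows of HSPA1A and HSPA1B were alike at 277 of 301 aligned positions (92%), and both hold the same marked GAATATTC. A match is a description of these letters only.

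The 10 genes together took 0.461% to 0.773% of the counts of a library. Per kilobase of exon, HSP90AB1 was the most abundant of them in control cells alone at 1016 ± 96.8 CPM per kb (mean ± SD, n = 3), followed by HSPB1 at 675 ± 150, HSPA8 at 285 ± 28.8, DNAJB1 at 115 ± 21.9 and HSPA1B at 87.2 ± 11.8. BAG3 at 63.5 ± 9.97, HSF1 at 51.8 ± 8.86 and HSP90AA1 at 51.5 ± 21.2 CPM per kb came next, then HSPA1A at 21.9 ± 3.12 and HSPH1 at 4.24 ± 2.05. Among neighbours in that order, the libraries of DNAJB1 and HSPA1B overlapped, as did those of BAG3 and HSF1 and those of HSF1 and HSP90AA1. In knockout cells alone HSPB1 (593 ± 132 CPM per kb) and HSP90AB1 (527 ± 11.7) overlapped at the top, HSP90AA1 followed HSPA8 at 116 ± 44.2, and HSPA1A (35.0 ± 3.94), HSF1 (32.4 ± 5.24) and HSPA1B (31.9 ± 1.33) overlapped. In co-cultured knockout cells HSPA1A (69.3 ± 6.02 CPM per kb), BAG3 (67.5 ± 6.90), HSPA1B (57.9 ± 6.27) and HSP90AA1 (53.3 ± 46.4) each overlapped the next.

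**Figure D1:**
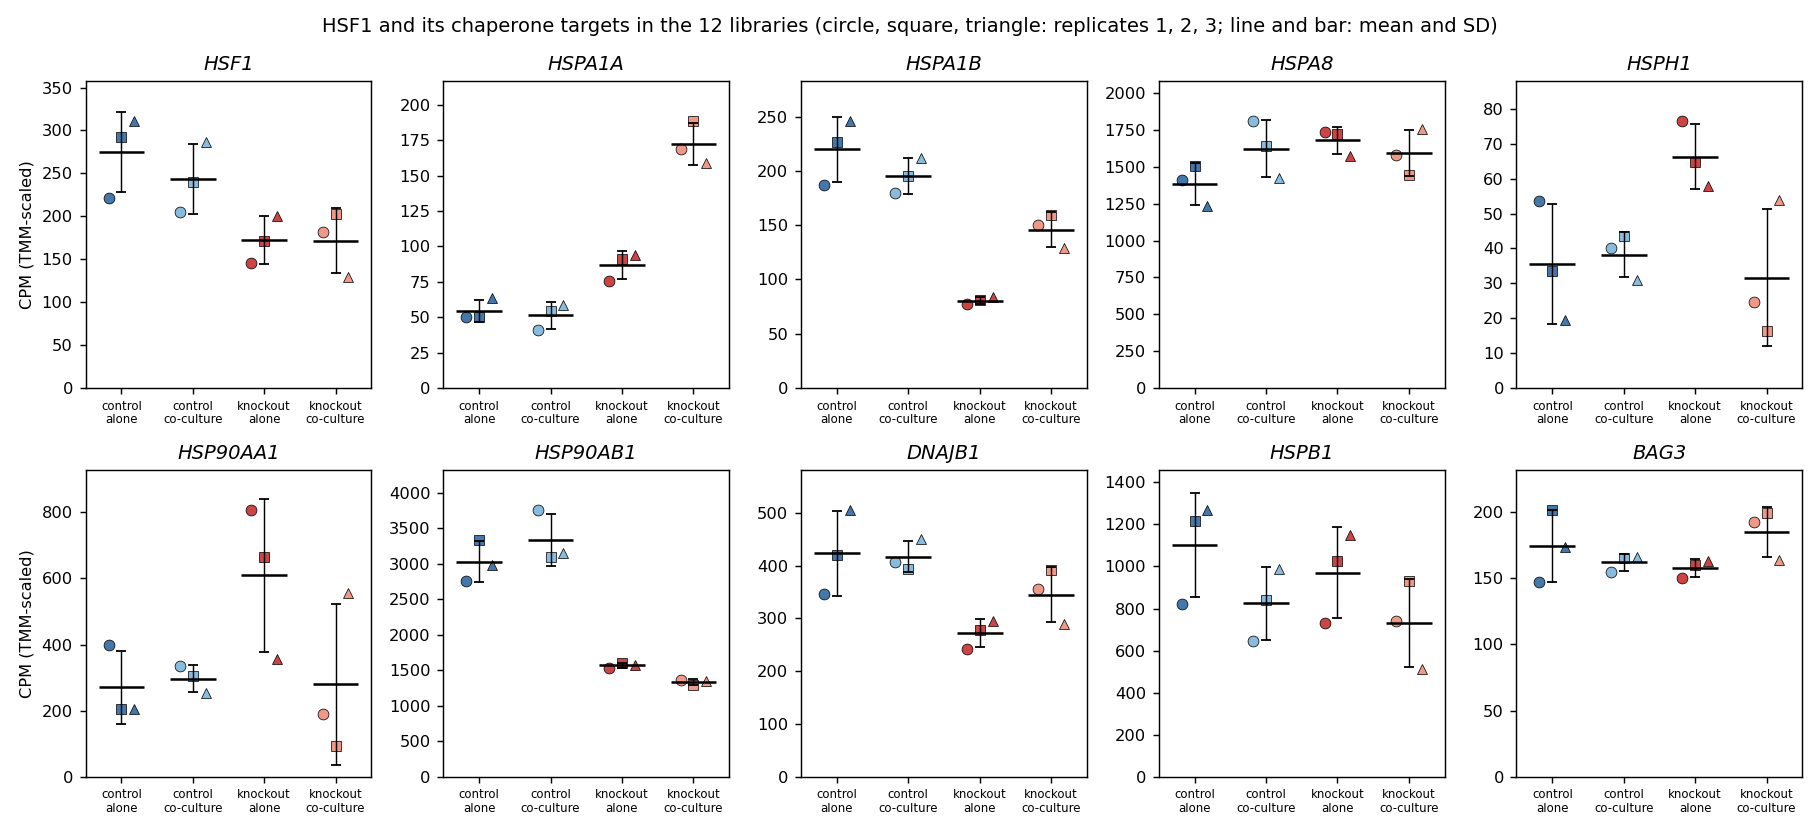
TMM-scaled CPM of the 10 genes (y axes, each from 0) in the 4 groups (x axes), with 1 symbol per library and the mean and SD of each group. HSP90AB1 sits lower in all 6 knockout libraries than in any control library, HSPA1A is highest in the 3 co-cultured knockout libraries, and HSP90AA1 spreads from 93.8 to 555 CPM within the last group.

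Knockout cells grown alone differed from control cells grown alone in 5 of the 10 genes. HSPA1A, an inducible HSP70, was higher, while its near-identical copy HSPA1B, the HSP90 gene HSP90AB1, the HSP40 gene DNAJB1 and HSF1 itself were lower, HSF1 only without GC offsets, described below (edgeR quasi-likelihood test, Benjamini-Hochberg adjusted p under 0.05). Over all genes tested, 56.6% passed the same threshold in this comparison, 28.0% higher and 28.6% lower, so a count of 5 in 10 is near the background. The libraries of the 2 groups did not overlap for 7 of the 10 genes, against 65.2% of all genes. The median log2 fold change of the 10 genes was -0.17, against 0.09 over all genes tested. Co-cultured knockout cells differed from lone knockout cells in 2 genes, HSPA1A and HSPA1B, both higher, against a background of 11.4% of all genes in either direction, 5.97% higher and 5.40% lower. Libraries did not overlap for 5 of the 10 genes, against 31.5% of all genes. Co-cultured knockout cells differed from co-cultured control cells in 3 genes, with HSPA1A higher and HSPA1B and HSP90AB1 lower, against a background of 49.4%, with 24.1% higher and 25.3% lower. Libraries did not overlap for 5 of the 10 genes, against 55.4% of all genes. These comparisons share groups with each other, so they are not independent.

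In control cells, co-culture went with no call. By edgeR none of the 10 genes passed the threshold, none had an unadjusted p under 0.05 (the smallest was 0.125, for HSPB1), and DESeq2 called none either. The log2 fold changes ran from -0.42 to 0.23 and all 10 genes overlapped between the 2 groups, where 7.39% of all genes did not overlap. Over all genes, edgeR and DESeq2 called 0% at the adjusted threshold, and 540 genes (3.22%) had an unadjusted p under 0.05.

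**Figure D2:**
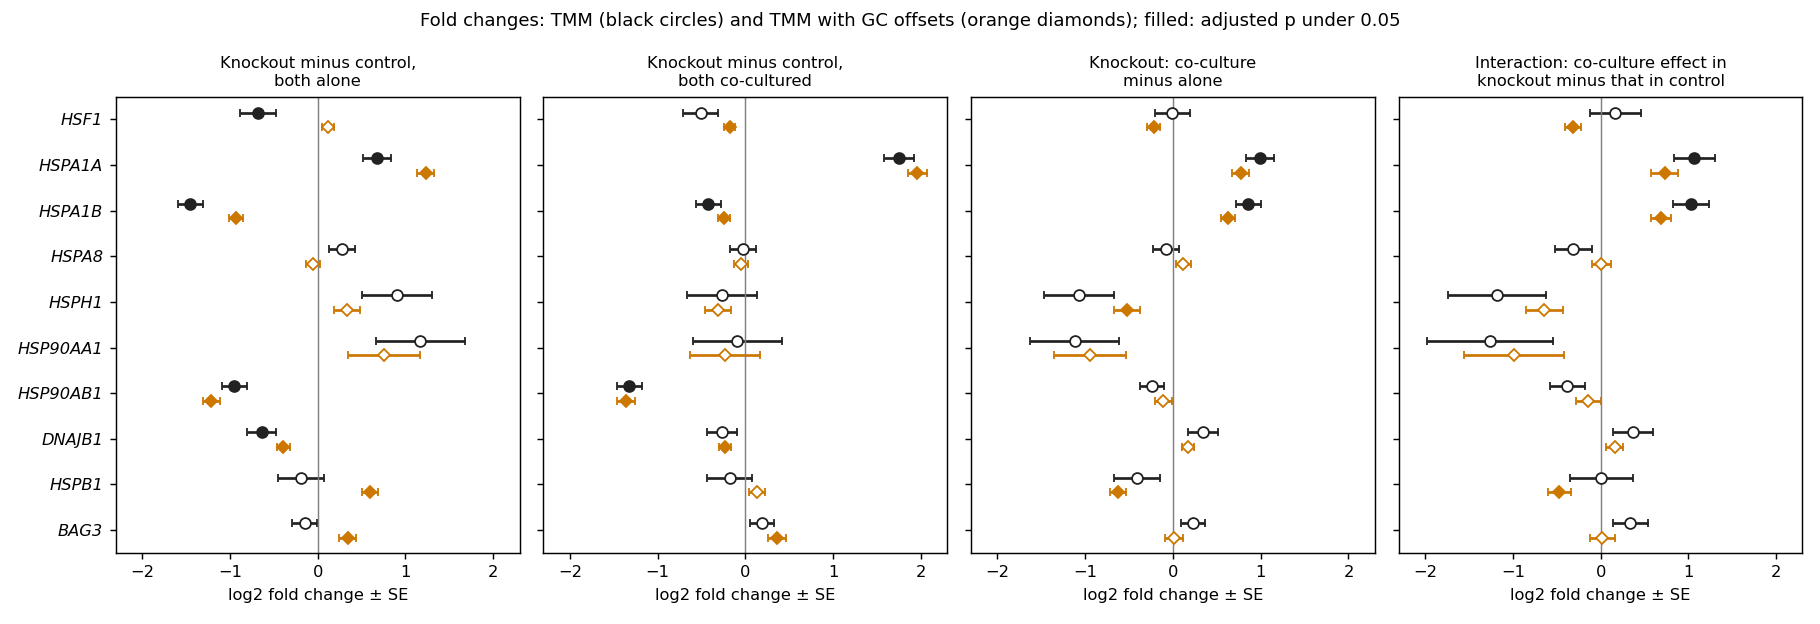
Log2 fold changes with standard errors (x axes) of the 10 genes (rows) in 4 comparisons, from the fit with TMM scaling (black circles) and with additional offsets for GC content (orange diamonds), with filled symbols at an adjusted p under 0.05. HSPA1A and HSPA1B are to the right of 0 under both in the co-culture panel, and HSF1 moves from -0.68 to 0.12 in the first panel.

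The libraries differed in how their counts depended on the GC content of transcripts, and this bears on genes at both ends of the range. Within each group, the deviation of a library from its group mean was correlated with transcript GC content over 12055 genes, with Spearman's rho from -0.86 in co-cultured knockout replicate 3 to 0.85 in co-cultured knockout replicate 2 (a description across genes, which are not independent). Among the tested genes, the GC content of HSF1 lay at the 94.2 percentile, that of HSPB1 at 93.5, that of HSPA1A at 80.8 and that of HSPA1B at 78.8. That of HSP90AA1 lay at the 30.2 and that of HSPH1 at the 6.20 percentile. A second fit therefore removed each library's trend with GC content as an offset. Such an offset also removes any difference between groups that follows GC content in the cells, so neither fit was taken as the true one, and its values are given where they change a call or a direction stated in the text.

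**Figure D3:**
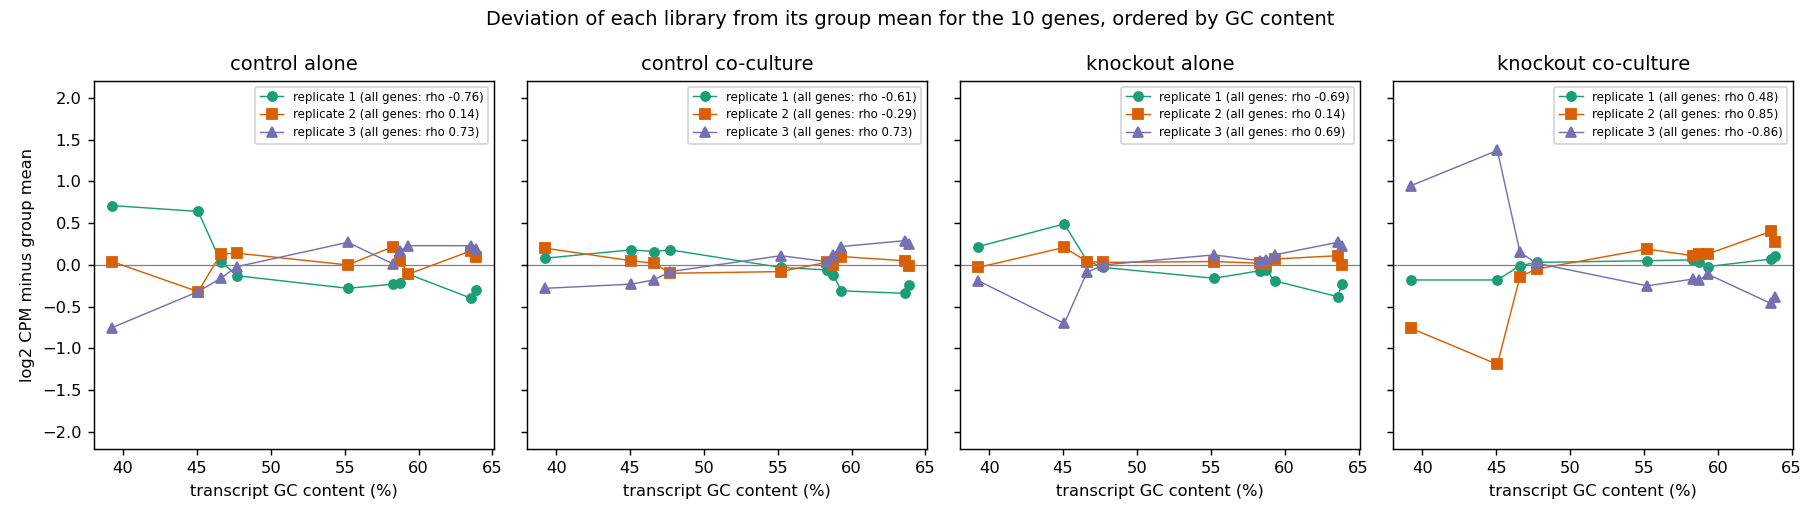
Log2 CPM of each of the 10 genes minus its group mean (y axis) against transcript GC content in percent (x axis), 1 panel per group and 1 line per replicate, with the rho over all genes in the legend. The genes of low and of high GC content deviate in opposite directions, most widely in co-cultured knockout cells, where replicate 3 is above the mean for HSPH1 and HSP90AA1 and below it for HSF1 and HSPB1.

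HSF1, the regulator, stood at 222, 292 and 311 CPM in control cells alone and at 145, 171 and 201 CPM in knockout cells alone. Co-cultured control cells had 205, 240 and 286 CPM, and co-cultured knockout cells 182, 203 and 129 CPM. The knockout libraries were all below the control libraries in each culture, while lone and co-cultured libraries of each genotype overlapped. HSF1 fell by 0.68 ± 0.20 on the log2 scale (SE) in knockout cells alone (edgeR adjusted p = 0.0125). Without knockout-alone replicate 1 the log2 fold change was -0.57 with an edgeR adjusted p of 0.0563, and with GC offsets it was 0.12 with an edgeR adjusted p of 0.109. Between co-cultured groups the difference was -0.51 ± 0.20 (edgeR adjusted p = 0.0528), and with GC offsets it was -0.18 (edgeR adjusted p = 0.0216). It passed without control-alone replicate 1 or 3, co-cultured control replicate 1, knockout-alone replicate 3 or co-cultured knockout replicate 2, and edgeR adjusted p ran from 0.0193 to 0.161 over the 12 fits without 1 library. Co-culture of knockout cells went with a log2 difference of -0.01 ± 0.20, and of -0.22 with GC offsets (edgeR adjusted p = 0.0210). Exons of HSF1 overlap those of DGAT1 on the other strand, and whether the counting used strand is not given in the sources used here.

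HSPA1A and HSPA1B encode the main stress-inducible HSP70 proteins from neighbouring single-exon genes on chromosome 6 (GRCh38, 31815464 to 31817946 and 31827735 to 31830255, plus strand). HSPA1A stood at 49.9, 49.9 and 63.3 CPM in control cells alone and at 75.7, 91.0 and 93.8 CPM in knockout cells alone. It stood at 40.7, 54.3 and 58.9 CPM in co-cultured control cells and at 169, 189 and 159 CPM in co-cultured knockout cells. The 3 co-cultured knockout libraries were thus the highest of the 12, the 3 lone knockout libraries came next, and neither overlapped any other group. HSPA1A rose by 0.68 ± 0.16 on the log2 scale in knockout cells alone (edgeR adjusted p = 0.00346), and by 1.23 with GC offsets (edgeR adjusted p = 7.16e-08). In co-cultured knockout cells it was higher than in lone ones by 0.99 ± 0.16, going from 86.8 ± 9.77 to 172 ± 15.0 CPM (mean ± SD, n = 3, edgeR adjusted p = 0.00274). Co-cultured knockout cells exceeded co-cultured control cells by 1.75 ± 0.17 (edgeR adjusted p = 2.35e-06). All of these calls held in each of the 20 alternatives tried on them.

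HSPA1B stood at 187, 226 and 246 CPM in control cells alone and at 76.9, 80.6 and 83.6 CPM in knockout cells alone. Its levels were 179, 195 and 212 CPM in co-cultured control cells and 150, 159 and 129 CPM in co-cultured knockout cells. Here the lone knockout libraries were the lowest of the 12, and the co-cultured knockout libraries lay between them and the controls. HSPA1B fell by 1.45 ± 0.14 on the log2 scale in knockout cells alone (edgeR adjusted p = 2.37e-06), and by 0.93 with GC offsets (edgeR adjusted p = 4.56e-08). In co-cultured knockout cells it was higher than in lone ones by 0.86 ± 0.14 (edgeR adjusted p = 0.00242). Both calls held in each of the 20 alternatives. Between co-cultured groups HSPA1B fell by 0.42 ± 0.14 (edgeR adjusted p = 0.0219), and 7 of 20 alternatives lost that call, among them DESeq2 and the fits without co-cultured control replicate 2 or 3 or co-cultured knockout replicate 3, with edgeR adjusted p from 0.0113 to 0.0804 over the 12 fits that left out 1 library. With GC offsets the difference was -0.24 (edgeR adjusted p = 0.0108).

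The effect of co-culture on these 2 genes was tested directly for a difference between the labelled genotypes. Whether the control libraries come from A549 was not settled, and their co-culture partner is not named. The parts of guide, cells and partner in this difference therefore cannot be told apart. The change with co-culture in knockout cells exceeded that in control cells by 1.07 ± 0.23 for HSPA1A (edgeR adjusted p = 0.0350) and by 1.03 ± 0.20 for HSPA1B (edgeR adjusted p = 0.0183), where 1.80% of all genes passed. With TMM scaling, the filter and all 12 libraries, no other of the 10 genes passed. With GC offsets HSF1 (-0.31, edgeR adjusted p = 0.0479) and HSPB1 (-0.47, edgeR adjusted p = 0.0386) passed as well, where TMM scaling gave 0.17 and 0.01. The sizes changed little when single libraries were left out, at 0.93 to 1.17 for HSPA1A and 0.93 to 1.13 for HSPA1B, but the calls did not all hold. That of HSPA1A was lost in 9 of the 12 such fits, all but those without control-alone replicate 1, co-cultured control replicate 3 or co-cultured knockout replicate 3, with edgeR adjusted p up to 0.103. That of HSPA1B was lost in 6 of 12, those without control-alone replicate 2, co-cultured control replicate 1 or 2, knockout-alone replicate 1 or 2, or co-cultured knockout replicate 1, with edgeR adjusted p up to 0.0691. HSPH1 and HSP90AA1 had -1.18 and -1.26 (edgeR adjusted p = 0.277 and 0.342). Without co-cultured knockout replicate 3 they had -1.80 and -2.24 and passed (edgeR adjusted p = 0.00996 and 0.00787), where 3623 genes in all passed against 301. Both also passed with no filter, and with GC offsets and without that library (-0.73 and -1.66).

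The 2 genes share most of their sequence. Of their 75-base stretches, 69.3% of those of HSPA1A and 73.2% of those of HSPA1B also occur in another gene. How the counting placed such reads therefore affects each gene alone, and it may affect their sum. Exons of HSPA1B also overlap those of another annotated gene on the same strand, which shares 75-base stretches with both genes. Reads discarded, or given to that gene, would be missing from the sum, and the counting options are not given. Summed, the pair stood at 274 ± 36.0 CPM in control cells alone, 247 ± 25.7 in co-cultured control cells, 167 ± 13.0 in knockout cells alone and 318 ± 30.1 in co-cultured knockout cells. The sum fell by 0.71 ± 0.14 on the log2 scale in knockout cells alone (edgeR adjusted p = 0.000990) and rose by 0.93 ± 0.14 with their co-culture (edgeR adjusted p = 0.00177). It was higher by 0.37 ± 0.14 in co-cultured knockout than in co-cultured control cells (edgeR adjusted p = 0.0489), and its difference in co-culture effect was 1.08 ± 0.20 (edgeR adjusted p = 0.0165). The sum was not fitted with GC offsets, under which HSPA1A rose by 1.23 and HSPA1B fell by 0.93 in knockout cells alone. Whether the changes of the sum hold under such offsets was not tested. HSPA1B supplied 79.0%, 81.9% and 79.5% of the pair in control cells alone and 81.5%, 78.3% and 78.3% in co-cultured control cells. In knockout cells it supplied 50.4%, 47.0% and 47.1% alone and 47.0%, 45.8% and 44.7% in co-culture. No knockout library reached the share of any control library, and a two-sided exact permutation test gave p = 0.1 for knockout against control in each culture, the smallest value that 3 against 3 allows. Within a genotype the mean shares were 80.2% alone and 79.4% in co-culture for control cells (exact permutation p = 0.5), and 48.2% and 45.8% for knockout cells (exact permutation p = 0.2).

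**Figure D4:**
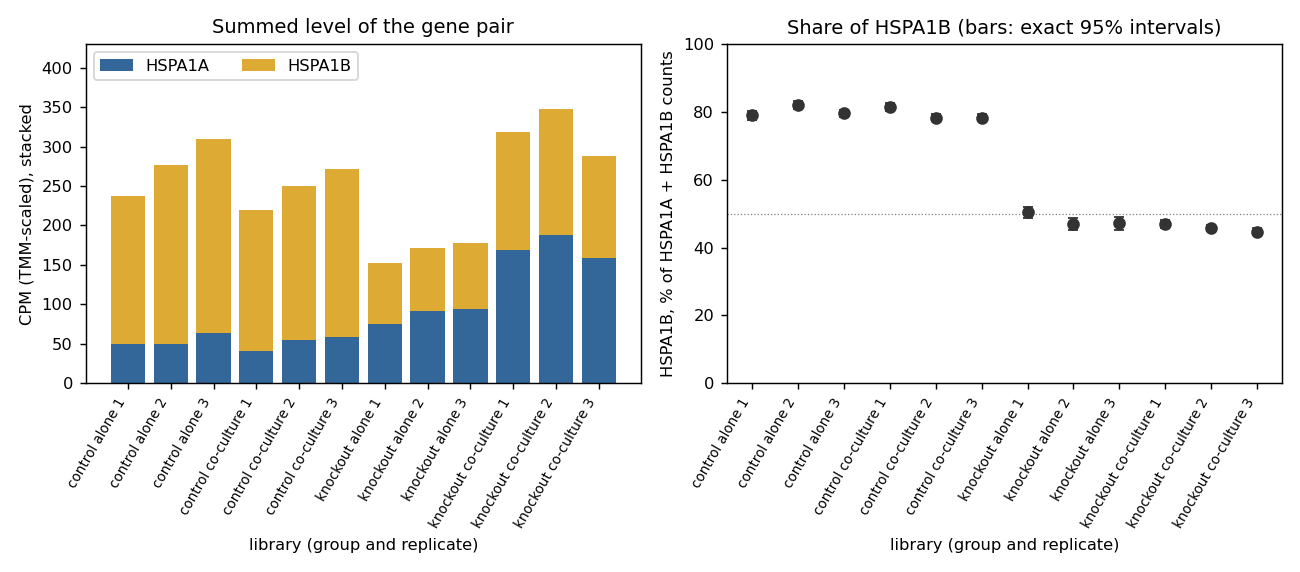
Left, TMM-scaled CPM of HSPA1A and HSPA1B stacked for each of the 12 libraries (x axis); right, HSPA1B as a percentage of the summed counts, with exact 95% binomial intervals that cover counting error only. The share lies between 78.3% and 81.9% in the 6 control libraries and between 44.7% and 50.4% in the 6 knockout libraries, while the sum is lowest in knockout cells alone.

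HSPA8, the constitutive HSP70, was the most abundant of the 3 HSP70 genes per kilobase, at 1413, 1507 and 1232 CPM in control cells alone and 1737, 1726 and 1576 CPM in knockout cells alone. It had 1811, 1640 and 1423 CPM in co-cultured control cells and 1579, 1442 and 1755 CPM in co-cultured knockout cells. The lone knockout libraries exceeded the lone control libraries, and the other groups overlapped. No comparison passed the test, with a log2 difference of 0.28 ± 0.15 between the lone groups (edgeR adjusted p = 0.122) that became -0.05 with GC offsets.

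Among DNAJB1, HSPH1 and BAG3, the partners of HSP70 followed here, only DNAJB1 passed the edgeR test with TMM scaling, the filter and all libraries. DNAJB1, which presents substrates to HSP70 and starts ATP hydrolysis, stood at 346, 420 and 506 CPM in control cells alone and at 243, 278 and 295 CPM in knockout cells alone. It had 408, 394 and 450 CPM in co-cultured control cells and 355, 392 and 289 CPM in co-cultured knockout cells. The lone knockout libraries were below every control library, the co-cultured knockout libraries were below the co-cultured control libraries, and co-cultured knockout replicate 3 lay within the lone knockout range. DNAJB1 fell by 0.64 ± 0.17 on the log2 scale in knockout cells alone (edgeR adjusted p = 0.00543) and by 0.39 with GC offsets (edgeR adjusted p = 0.000249), a call that held in all 21 alternatives. Between co-cultured groups the difference was -0.27 ± 0.17 (edgeR adjusted p = 0.190) and -0.23 with GC offsets (edgeR adjusted p = 0.0120). Exons of DNAJB1 overlap those of TECR on the other strand, and none of the alternatives bears on reads from that strand.

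HSPH1, an HSP110 protein that exchanges the nucleotide of HSP70, was the least abundant of the 10 genes. It stood at 53.7, 33.6 and 19.5 CPM in control cells alone and at 76.5, 64.7 and 57.9 CPM in knockout cells alone. Its levels were 40.1, 43.6 and 31.1 CPM in co-cultured control cells and 24.6, 16.4 and 53.9 CPM in co-cultured knockout cells. The lone knockout libraries were the highest of the 12, and in the co-cultured knockout group replicate 3 stood apart from replicates 1 and 2. With TMM scaling no comparison passed: the log2 difference was 0.90 ± 0.40 for knockout against control alone (edgeR adjusted p = 0.0693, and 0.33 with GC offsets) and -1.07 ± 0.40 for co-cultured against lone knockout cells (edgeR adjusted p = 0.0956). The latter was -1.70 without co-cultured knockout replicate 3 (edgeR adjusted p = 0.00132) and -0.52 with GC offsets (edgeR adjusted p = 0.0141). Without that library, knockout against control alone was still 0.90 but passed (edgeR adjusted p = 0.0103), as it also did without control-alone replicate 1 or co-cultured knockout replicate 2, and the difference between co-cultured groups went from -0.27 to -0.90 (edgeR adjusted p = 0.0258). The part of GC content in these values was not separated from the groups.

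BAG3, which links HSP70 to small heat shock proteins and autophagy, had 147, 202 and 174 CPM in control cells alone and 150, 160 and 163 CPM in knockout cells alone. It had 155, 165 and 166 CPM in co-cultured control cells and 193, 200 and 164 CPM in co-cultured knockout cells. All groups overlapped except the lone and co-cultured knockout libraries, and no comparison passed with TMM scaling. With GC offsets BAG3 was higher in knockout than in control cells, by 0.34 alone (edgeR adjusted p = 0.00749) and 0.36 in co-culture (edgeR adjusted p = 0.00543), where TMM scaling gave -0.15 and 0.19.

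The 2 cytosolic HSP90 genes differed from each other. HSP90AB1, the constitutive form, stood at 2763, 3336 and 2982 CPM in control cells alone and at 1533, 1603 and 1573 CPM in knockout cells alone. Co-cultured control cells had 3761, 3102 and 3154 CPM and co-cultured knockout cells 1361, 1289 and 1349 CPM. Every knockout library lay below every control library, and the 2 knockout groups varied less than the control groups. HSP90AB1 fell by 0.95 ± 0.14 on the log2 scale in knockout cells alone (edgeR adjusted p = 9.00e-05) and by 1.32 ± 0.14 in co-cultured knockout cells (edgeR adjusted p = 5.90e-06), and both calls held in each of 21 alternatives, including GC offsets at -1.21 and -1.36. Co-culture of knockout cells went with a log2 difference of -0.24 ± 0.14 (edgeR adjusted p = 0.269).

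HSP90AA1, the stress-inducible form, stood at 399, 206 and 206 CPM in control cells alone and at 808, 665 and 355 CPM in knockout cells alone. It had 334, 305 and 252 CPM in co-cultured control cells and 190, 93.8 and 555 CPM in co-cultured knockout cells. Neither lone knockout and lone control nor lone and co-cultured knockout libraries were separated, since knockout-alone replicate 3 fell within the control range and co-cultured knockout replicate 3 within the lone knockout range. The log2 difference was 1.17 ± 0.51 for knockout against control alone (edgeR adjusted p = 0.0672, and 0.76 with GC offsets) and -1.12 ± 0.51 for co-cultured against lone knockout cells (edgeR adjusted p = 0.161). Without co-cultured knockout replicate 3 the latter became -2.10 (edgeR adjusted p = 0.00103), or -1.62 with GC offsets as well (edgeR adjusted p = 0.00526). Without the same library, whose removal changes the estimate of spread, the former was still 1.17 but had an edgeR adjusted p of 0.00523, and the difference between co-cultured groups went from -0.09 to -1.06 (edgeR adjusted p = 0.0240). Knockout against control alone also passed without control-alone replicate 1, knockout-alone replicate 3 or co-cultured knockout replicate 2. HSP90AA1 made up 5.82% to 12.6% of the HSP90AA1 and HSP90AB1 counts in control libraries and 34.5%, 29.3% and 18.4% in knockout cells alone. In co-cultured knockout cells it made up 12.3%, 6.79% and 29.2%. Exons of HSP90AA1 overlap those of WDR20 on the other strand.

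HSPB1, the small heat shock protein, stood at 820, 1216 and 1270 CPM in control cells alone and at 730, 1027 and 1151 CPM in knockout cells alone. Co-cultured control cells had 643, 839 and 990 CPM and co-cultured knockout cells 742, 931 and 513 CPM. All groups overlapped, and no comparison passed with TMM scaling. With GC offsets HSPB1 was higher in knockout than in control cells alone, by 0.60 ± 0.09 on the log2 scale (edgeR adjusted p = 4.85e-05) where TMM scaling gave -0.19 ± 0.26, and lower in co-cultured than in lone knockout cells, at -0.63 ± 0.09 (edgeR adjusted p = 0.000224) where TMM scaling gave -0.41 ± 0.26.

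Other genes of the chaperone network were taken from lists of 67 genes, 64 of which passed the filter. In knockout cells alone 12 were higher and 21 lower than in control cells alone, that is 33 of 64 against a background of 56.6%, with a median log2 fold change of -0.08. Of 11 HSP90 co-chaperones, which load and release HSP90 clients, 5 were lower and 0 higher. Over all genes 28.6% were lower and 28.0% higher. FKBP5, an immunophilin of steroid receptor complexes, went from 36.7 ± 4.52 to 10.3 ± 2.08 CPM (log2 fold change -1.83 ± 0.27, edgeR adjusted p = 8.08e-05). FKBP4, its relative in the same complexes, went from 764 ± 159 to 353 ± 48.5 CPM (-1.11 ± 0.18, edgeR adjusted p = 0.000186). With GC offsets all 11 HSP90 co-chaperones were called lower, and over all genes the share called was then 63.6%, with 5332 of 16768 lower.

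Of 7 other HSP70 genes, 4 were higher in knockout cells alone and 0 lower. The shares over all genes, for this list and the next ones, were 56.6% called, 28.0% higher and 28.6% lower. HSPA6, an HSP70 that human cells make almost only under stress, had 0.409 ± 0.124 CPM in control cells alone and 2.02 ± 0.728 in knockout cells alone (2.27 ± 0.37 on the log2 scale, edgeR adjusted p = 0.000225). HSPA12A, a distant HSP70 relative, rose by 1.17 ± 0.17 (edgeR adjusted p = 6.41e-05). Of 8 other HSP40 genes, 3 were higher and 1 lower, and with GC offsets 3 were higher and 4 lower. DNAJA4 was at 27.9 to 33.3 CPM in control cells alone and at 0.423 to 0.946 CPM in knockout cells alone (log2 fold change -5.45 ± 0.25, edgeR adjusted p = 3.08e-09). DNAJB4 rose by 2.40 ± 0.49 (edgeR adjusted p = 0.00111). Of 7 other cofactors of HSP70, 3 were lower and 0 higher, among them ST13, which keeps HSP70 in its substrate-holding state (-0.85 ± 0.14, edgeR adjusted p = 0.000285), and the exchange factor HSPBP1 (-0.98 ± 0.26, edgeR adjusted p = 0.00586), whose value with GC offsets was -0.10. With GC offsets only ST13 of the 7 was called (14.3%), against 63.6% of all genes. BAG1, another exchange factor, had 0.08 ± 0.16 here and 0.51 ± 0.16 with co-culture of knockout cells (edgeR adjusted p = 0.0568), and the latter passed with GC offsets at 0.47 (edgeR adjusted p = 0.0198).

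Of 6 other small heat shock genes 3 were tested and 2 were higher in knockout cells. With TMM scaling the counts of each list here stand beside 28.0% higher and 28.6% lower over all genes. HSPB8, a partner of BAG3, went from 8.0 ± 1.49 to 63.1 ± 3.89 CPM (2.98 ± 0.19 on the log2 scale, edgeR adjusted p = 5.63e-08). CRYAB, the crystallin chaperone, had 1 to 2 counts in each lone control library and 77 to 91 in each lone knockout library, and its exons overlap those of HSPB2 on the other strand. The chaperonin TRiC, which folds actin and tubulin, had 1 of 8 subunit genes higher (CCT4, 0.86 ± 0.16, edgeR adjusted p = 0.000660) and 2 lower, among them CCT3 (-0.70 ± 0.15, edgeR adjusted p = 0.00189). CCT2 had 0.23 ± 0.19 (edgeR adjusted p = 0.32), and -0.27 with GC offsets (edgeR adjusted p = 0.0335). With GC offsets 7 of the 8 were lower and CCT4 was higher, where 63.6% of all genes were called and 5332 of 16768 were lower. Of 6 mitochondrial chaperone genes, 1 was higher (HSPE1, 0.58 ± 0.13, edgeR adjusted p = 0.00224) and 3 lower, led by the mitochondrial HSP90 TRAP1 (-1.33 ± 0.21, edgeR adjusted p = 0.000185), and the mitochondrial HSP70 HSPA9 had 0.22 ± 0.19. With GC offsets 0 of the 6 were higher and 4 lower, that is 66.7% called against 63.6% of all genes. HSPE1 then had 0.25 and no longer passed (edgeR adjusted p = 0.128), and HSPA9 turned to -0.22 and passed (edgeR adjusted p = 0.0207). Of 8 chaperone genes of the endoplasmic reticulum, 4 were lower and 0 higher, among them HYOU1 (-1.54 ± 0.14, edgeR adjusted p = 1.46e-06) and SDF2L1 (-1.88 ± 0.30, edgeR adjusted p = 0.000203). Among 3 relatives and regulators of HSF1, HSBP1, which binds the HSF1 trimer, was lower (-0.56 ± 0.11, edgeR adjusted p = 0.00107) and HSF4 was higher (0.86 ± 0.29, edgeR adjusted p = 0.0225). Of 3 further HSF1 targets, the ubiquitin gene UBB (-0.73 ± 0.19, edgeR adjusted p = 0.00607) and the collagen chaperone SERPINH1 (-0.62 ± 0.18, edgeR adjusted p = 0.0114) were lower, the latter at -0.01 with GC offsets (edgeR adjusted p = 0.891). Among the genes named for knockout against control alone, GC offsets moved the log2 fold change by more than 1.5 times with call and direction kept for HSF4 (1.70), HSBP1 (-0.95), ST13 (-1.34), CCT4 (0.37) and SDF2L1 (-0.95).

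Between lone and co-cultured knockout cells 6 of the 64 related genes differed, 5 of them upward, where 11.4% of all genes were called and 5.97% were higher, so the count of 6 is near the background. HSPA6 stood at 1.19, 2.39 and 2.50 CPM in lone knockout cells and at 9.27, 7.57 and 7.13 CPM in co-cultured ones, while the 6 control libraries ranged from 0.308 to 0.547 CPM. The groups did not overlap, and HSPA6 rose by 1.99 ± 0.30 on the log2 scale with co-culture (edgeR adjusted p = 0.00147) and by 1.80 with GC offsets. DNAJB5, an HSP40 protein, went from 10.6 ± 1.47 to 18.3 ± 2.44 CPM (0.80 ± 0.17, edgeR adjusted p = 0.0118), and HYOU1 from 112 ± 2.27 to 162 ± 14.6 CPM (0.52 ± 0.14, edgeR adjusted p = 0.0325). The others called, named after their values were seen, were DNAJB2 (0.62 ± 0.18) and PDIA4 (0.46 ± 0.13) upward and HSPA4, an HSP110 relative of HSPH1, downward (-1.12 ± 0.33, edgeR adjusted p = 0.0470), with 0.39, 0.32 and -0.73 under GC offsets. The difference in co-culture effect between genotypes passed for none of the 64 genes by edgeR with TMM scaling, where 1.80% of all genes passed, and for 2 by DESeq2. With GC offsets edgeR called 6 of the 64 (9.38%), 5 higher and 1 lower, against 9.42% of all genes. Between co-cultured groups 13 related genes were higher and 19 lower in knockout cells, near the background of 24.1% higher and 25.3% lower over all genes, with HSPA6 at 4.10 ± 0.35 (edgeR adjusted p = 8.07e-07) and 0 of 11 HSP90 co-chaperones higher.

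**Figure D5:**
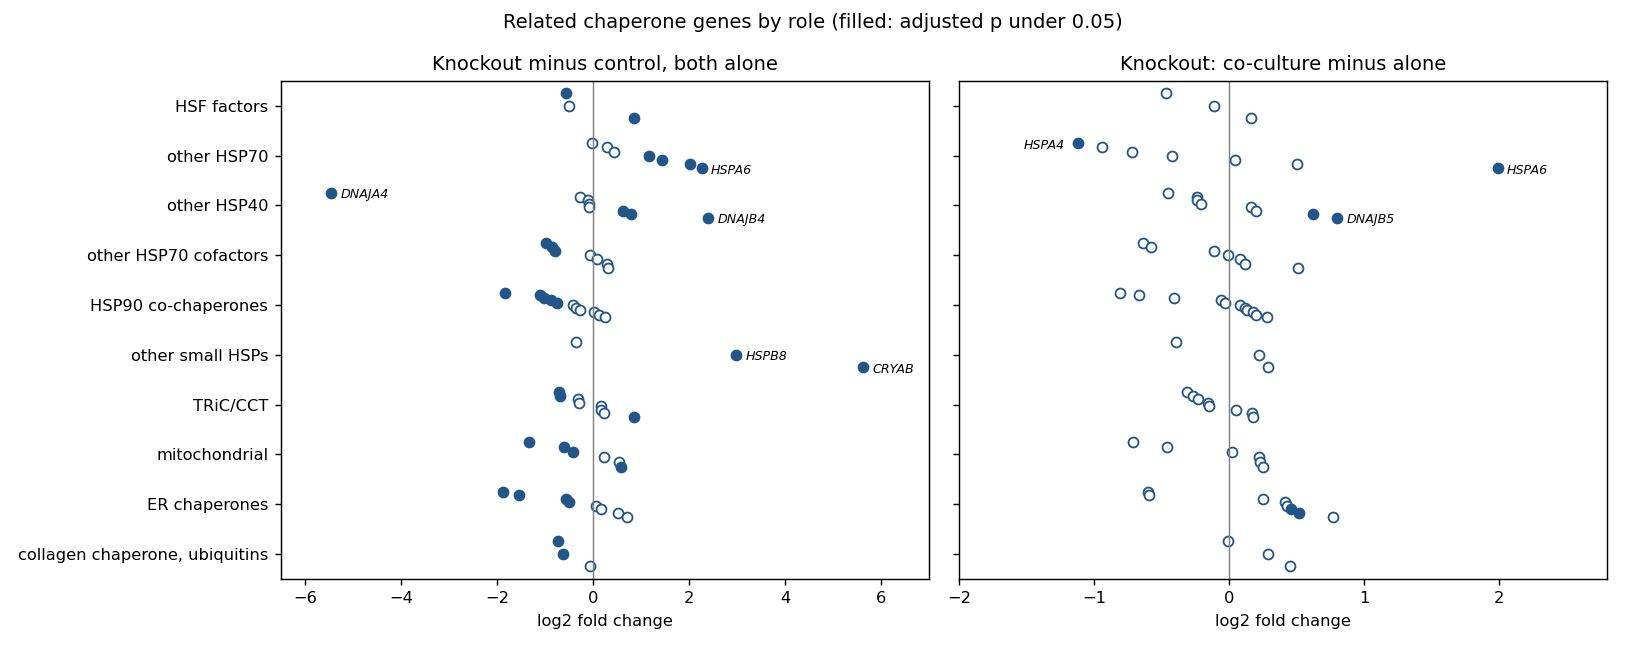
Log2 fold changes (x axes) of the 64 tested related chaperone genes by role (rows), for knockout against control cells alone (left) and co-cultured against lone knockout cells (right), with filled points at an adjusted p under 0.05. The left panel holds 33 filled points and the right panel 6, of which HSPA6 at 1.99 is the farthest from 0.

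The genes whose log2 levels ran most like the sum of HSPA1A and HSPA1B over the 12 libraries were TRIB3 (Pearson's r = 0.985), HIC2 (0.978), CEBPD (0.974), ZSWIM8 (0.972) and MAFF (0.971). TRIB3 encodes a stress-induced pseudokinase, and CEBPD and MAFF encode transcription factors of the leucine zipper class. TRIB3 had means of 149, 141, 75.6 and 209 CPM in control alone, control co-culture, knockout alone and knockout co-culture, and MAFF of 33.7, 33.1, 14.5 and 65.5 CPM, so both were lowest in lone and highest in co-cultured knockout cells, as the HSPA1 sum was. Those most like HSPH1 were PTBP3 (0.990), STRN3 (0.988), AEBP2 (0.986), USO1 (0.986) and SBNO1 (0.986). Their transcripts have GC contents of 37.8% to 43.5%, near the 39.3% of HSPH1, while those listed for the HSPA1 sum have 59.6% to 70.0%. These correlations describe points that share libraries and group differences, and the part of GC content in them was not tested.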

How the data were processed

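RNA sequencing libraries labelled as A549 cells were compared, 3 in each of 4 groups, with each column of the count table matched to its sample by title. Per the labels, libraries were made from total RNA with a NEBNext Ultra kit, and no strand setting is given in them. The deposited table holds raw counts per Ensembl gene made by the authors; STAR 2.7.9a, featureCounts, FastQC, R 4.2.1, DESeq2 1.36.0 and the builds GRCh38 and hg38 are named in the submitters' processing notes, and the counting options are not given in the sources used here. Library totals ran from 14921371 to 35723762 counts, so 1 CPM is at least 16.1 counts. The common biological coefficient of variation was 22.1%.

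The counts were fitted with edgeR 4.0.16 (limma 3.58.1, R 4.3.3): filterByExpr over the 4 groups, TMM factors, 1 robust quasi-likelihood model of all 12 libraries, and Benjamini-Hochberg adjustment over 16768 genes in each of 5 comparisons, with an adjusted p under 0.05 called. Standard errors are the log2 fold change divided by the square root of F. The code was tested on simulated data. Gene symbols, exon lengths and GC contents came from the GENCODE annotation and transcripts of GRCh38, and promoters from RefSeq. Correlated genes were sought among those with a mean of at least 5 CPM. Related genes were named by rule: from each list, the 2 with the smallest p in knockout against control alone and the 1 with the smallest p in co-cultured against lone knockout cells. The members and lists were chosen with earlier results of these data known. Alternatives were DESeq2 1.42.0, other scalings, no filter, 2 groups only, a replicate block, GC offsets, summed HSPA1 genes and leaving out each library; GC offsets without co-cultured knockout replicate 3 were added after seeing the data. Replicate numbers were not used to pair the samples, except in the replicate block. No 2 replicates agreed within sampling noise.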

Additional observations from a re-analysis of the deposited data

Results flagged for a closer look

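The effect of co-culture differed between the labelled genotypes for HSPA1A, by 1.07 on the log2 scale (edgeR adjusted p = 0.0350), and for HSPA1B, by 1.03 (edgeR adjusted p = 0.0183), each by a test of the difference itself. Guide, cells and co-culture partner cannot be told apart in it, since the control libraries may not be A549 and their partner is not named. In knockout cells the 3 co-cultured libraries lay above the 3 lone ones for both genes, while in control cells the groups overlapped. With GC offsets the differences were 0.73 and 0.69. The call was lost for HSPA1A in 9 and for HSPA1B in 6 of the 12 fits that left out 1 library. The 2 genes share most of their sequence and are not independent of each other.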

How the results depend on the processing

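Calls with TMM scaling that held in every alternative tried were HSPA1A and HSPA1B in knockout against control alone and in co-cultured against lone knockout cells, HSP90AB1 in knockout against control in both cultures, HSPA1A between co-cultured groups, and DNAJB1 in knockout against control alone. For knockout against control alone, 5 of the 10 genes were called, and 8 with GC offsets and without co-cultured knockout replicate 3, where 11133 genes in all were called against 9485. For co-cultured against lone knockout cells the count was 2 (11.4% of all genes), against 4 with no filter and 1 with HSPA1 genes summed. It was 5 with GC offsets (30.5%), 6 without co-cultured knockout replicate 3 as well, and 2 to 4 without single libraries. Between co-cultured groups it was 3, against 5 with library size only and 6 with GC offsets, with or without co-cultured knockout replicate 3 (63.3% of all genes called with it). For the difference in co-culture effect it was 2 (1.80% of all genes), against 4 with no filter and 1 with the genes summed. It was 4 with GC offsets (9.42%), 5 without that replicate as well, and 0 to 4 without single libraries. Summing leaves 1 feature in place of 2 by construction, and the cause of the other changes was not tested.

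In comparisons of 2 groups that include knockout cells, signs turned as follows. With GC offsets, HSF1 alone was 0.12, HSPA8 -0.05, HSPB1 0.60 and BAG3 0.34 (0.13, -0.05, 0.60 and 0.35 without co-cultured knockout replicate 3 as well), and BAG3 was 0.02 with library size only. For co-cultured against lone knockout cells, HSF1 was 0.07 with DESeq2 or RLE factors, 0.13 with no filter, 0.01 with the replicate block, 0.11 without knockout-alone replicate 3 and 0.17 without co-cultured knockout replicate 3. HSPA8 was 0.05 with no filter and 0.12 with GC offsets (0.17 without that library as well), where BAG3 was -0.04. Between co-cultured groups HSPA8, -0.03 with TMM scaling, was 0.01 with library size only, 0.06 with no filter, 0.00 with 2 groups only, 0.05 without co-cultured control replicate 1, 0.01 without co-cultured knockout replicate 2, and 0.01 with GC offsets and without co-cultured knockout replicate 3. HSPH1 was 0.02 without co-cultured knockout replicate 2. Without single libraries the ranges were -0.16 to 0.17 for HSF1 with co-culture of knockout cells and, between co-cultured groups, -0.15 to 0.05 for HSPA8, -0.90 to 0.02 for HSPH1, -1.06 to 0.31 for HSP90AA1 and -0.43 to 0.03 for HSPB1. HSP90AA1 was 0.02 with library size only and 0.11 or 0.31 without co-cultured knockout replicate 1 or 2. HSPB1 was 0.13 with GC offsets (0.18 without co-cultured knockout replicate 3) and 0.03 without that library alone. Of the values with a turned sign, HSPB1 and BAG3 alone with GC offsets passed the test.

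Over all genes, 1907 were called in co-cultured against lone knockout cells, against 3238 with DESeq2, 3340 with no filter, 664 with 2 groups only, 5114 with GC offsets, 6248 with GC offsets and without co-cultured knockout replicate 3, and 536 to 5680 without single libraries, the highest without co-cultured knockout replicate 3. The share of calls that were higher was 52.5%, and 69.6% with library size only. The difference in co-culture effect was called for 301 genes, against 890 with DESeq2, 1342 with no filter, 1580 with GC offsets, 3458 with GC offsets and without co-cultured knockout replicate 3, and 119 to 3623 without single libraries, and 84.1% were higher, against 54.7% with no filter, 55.3% with GC offsets and 62.6% with DESeq2. Between control groups 2 genes were called with no filter. Of the related genes, 33 were called alone (50 with GC offsets and without co-cultured knockout replicate 3), 32 between co-cultured groups (49 with GC offsets), 0 for the difference in co-culture effect (2 with DESeq2, 4 with no filter, 6 with GC offsets) and 6 with co-culture of knockout cells (12 with no filter, 1 with 2 groups only, 2 with the replicate block, 25 with GC offsets, 1 to 22 without single libraries). Library size only moved the median of all genes from 0.09 to 0.24 alone and from 0.01 to -0.11 for the difference in co-culture effect.

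The replicate numbers did not pair the samples throughout: same-numbered libraries correlated in their deviations by -0.76 to 0.74. Between the lone groups, replicates 1 and 3 matched their own number best (0.74 and 0.64). So did replicate 3 between control groups (0.67) and replicate 2 between knockout groups (0.15). Elsewhere the best match had another number. With the replicate block, members called were 5, 2, 3, 0 and 2, as without it, while calls over all genes fell to 1080 in co-cultured against lone knockout cells and to 179 for the difference in co-culture effect. The libraries were deep enough that every member had at least 356 counts in every library, and with 3 libraries a group the spread between replicates limits these values more than counting error does.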
